A study of Mus musculus with 21 samples.

Results

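NF-kB is a family of transcription factors, and the genes described here encode its 5 subunits (Rela, Relb, Rel, Nfkb1 and Nfkb2) and 5 proteins that restrain or modify it (Nfkbia, Nfkbie, Nfkbiz, Bcl3 and Tnfaip3). They were found as the array probes whose RefSeq accession, without its version, belongs to one of these symbols. All 10 genes had a probe, among 20145 genes named on the array. Relb and Nfkb1 had 2 probes each, and the probe that was brighter over all 21 arrays stands for the gene.

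RNA came from MIN6m9, a subclone of a mouse insulinoma line that makes and secretes insulin, in 2 experiments. In the fatty acid experiment wild-type cells received 400 uM palmitate, a saturated fatty acid, for 48 h, or 400 uM oleate, an unsaturated one, for 48 h, or were left untreated, on 3 arrays each. The cells of the PERK experiment carried Fv2E-PERK, a form of the stress kinase PERK that is switched on when the small molecule AP20187 brings its copies together. These cells were given the ethanol vehicle (mock) or 1 nM AP20187 for 6, 12, 24 or 48 h, and the vehicle was also given to wild-type cells; each group has 2 arrays. The sources used here do not give the promoter of the transgene, whether the line is 1 clone, or when mock and untreated cells were harvested. AP20187 on cells without the transgene is not analysed here, so an effect of the molecule without the transgene cannot be told apart from that of the kinase. The labels do not say whether replicates are separate cultures, and p-values therefore cover a spread between arrays that may be technical.

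NF-kB acts as pairs of subunits that bind kB sites in DNA. RelA, RelB and c-Rel (Rel) carry activation domains, while p50 and p52 are cut from the longer products of Nfkb1 and Nfkb2. In resting cells IkB proteins such as IkBalpha (Nfkbia) and IkBepsilon (Nfkbie) hold the pairs in the cytoplasm until the IKK kinases mark them for destruction. Several inhibitor genes are themselves NF-kB targets, which makes a feedback loop, and the pathway is well known in beta cells for its response to inflammatory cytokines. PERK is one of the kinases that phosphorylate eIF2alpha, which lowers protein synthesis and starts the integrated stress response.

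The promoters of the members are shown because most of the genes moved together when Fv2E-PERK cells received AP20187. The RefSeq-derived promoter table (build GRCm38.p6) holds 10 windows for 7 of the 10 genes, each from 250 bases before to 50 bases after a start site. Relb, Nfkb1 and Nfkbiz are named only. Each window was searched on both strands for the NF-kB consensus decamer, and the matching bases, merged where matches overlap, are in capitals in the lines below, 5′ to 3′ along the gene.
Nfkb2, chr19:46304487-46304786, plus strand: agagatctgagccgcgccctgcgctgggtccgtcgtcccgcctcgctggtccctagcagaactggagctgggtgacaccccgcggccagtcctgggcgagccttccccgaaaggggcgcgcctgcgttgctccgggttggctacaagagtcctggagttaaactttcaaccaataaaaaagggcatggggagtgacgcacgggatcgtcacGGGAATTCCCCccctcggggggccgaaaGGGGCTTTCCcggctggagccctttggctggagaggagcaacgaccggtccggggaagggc
Nfkbia, chr12:55492598-55492897, minus strand: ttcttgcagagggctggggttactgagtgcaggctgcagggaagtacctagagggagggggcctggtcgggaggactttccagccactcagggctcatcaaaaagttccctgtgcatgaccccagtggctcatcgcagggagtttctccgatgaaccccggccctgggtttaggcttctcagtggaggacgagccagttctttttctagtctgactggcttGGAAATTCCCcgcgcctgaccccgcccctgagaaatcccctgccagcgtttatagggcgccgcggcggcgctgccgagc
Rel, chr11:23770920-23771219, minus strand: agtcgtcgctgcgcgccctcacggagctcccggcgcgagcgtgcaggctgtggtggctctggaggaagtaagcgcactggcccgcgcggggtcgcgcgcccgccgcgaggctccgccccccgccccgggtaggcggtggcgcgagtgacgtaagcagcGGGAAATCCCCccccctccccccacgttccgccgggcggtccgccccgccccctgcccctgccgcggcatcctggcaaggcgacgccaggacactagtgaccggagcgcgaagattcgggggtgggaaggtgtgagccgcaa
Tnfaip3, chr10:19015361-19015660, minus strand: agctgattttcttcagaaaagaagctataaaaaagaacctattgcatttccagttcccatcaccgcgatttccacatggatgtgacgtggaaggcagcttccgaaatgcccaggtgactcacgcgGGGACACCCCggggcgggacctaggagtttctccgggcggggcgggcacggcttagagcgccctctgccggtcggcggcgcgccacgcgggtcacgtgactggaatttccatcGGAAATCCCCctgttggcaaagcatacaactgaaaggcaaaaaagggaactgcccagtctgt
Rela, chr19:5637291-5637590, plus strand: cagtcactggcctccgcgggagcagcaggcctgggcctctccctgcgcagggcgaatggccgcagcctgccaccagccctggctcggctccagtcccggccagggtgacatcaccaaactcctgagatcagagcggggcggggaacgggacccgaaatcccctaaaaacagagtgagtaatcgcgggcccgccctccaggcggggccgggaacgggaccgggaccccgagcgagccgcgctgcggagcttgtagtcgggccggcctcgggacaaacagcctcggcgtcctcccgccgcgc

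The consensus matched in 8 of the 10 windows, belonging to 6 of the 7 genes, against 2779 of 32841 windows over all genes (8.46%). Windows of neighbouring start sites overlap, as 2 of the 3 Nfkb2 windows do, so windows are not independent. In the Nfkb2 window printed above, matches on the plus strand began at positions -39 and -11 relative to the start site. The Nfkbia match lay on the other strand and its first base as printed is at position -29. Rela's window held none. An element bound by ATF4 with C/EBP proteins, TGATGNAA on either strand, was found in 1 of the 10 windows, at the other Tnfaip3 start site, and in 3.97% of all windows. A match is a string of letters in a window and shows no binding.

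All signals below are log2 of the processed spot signal minus log2 of the array's 75th percentile, so 0 is the level of that percentile and 1 unit is a doubling. Levels of different genes come from different probes and are not compared. A gene is said to rise or fall where the adjusted p (limma, Benjamini-Hochberg over all entries tested) was under 0.05, and errors of log2 changes are standard errors of that fit. Bulk RNA cannot tell fewer cells of a type from less RNA per cell. Arrays of the fatty acid experiment had a 75th percentile signal of 336 to 459 and PERK arrays one of 380 to 823, and each array had 46.8 to 56.9% of its probes well above background. Of 10 beta cell markers, 8 to 10 were well above background on every array. Of 9 immune cell markers on the array, Cd3e, Csf1r and Itgam were well above background on all 21 arrays, Adgre1, Cd79a and Lyz2 on 0, and the pan-leukocyte marker Ptprc on 1. Untreated replicate 2 stood apart: the SD of its log2 differences from the other untreated arrays was 0.69 and 0.67, against 0.29 to 0.39 for every other pair of replicates.

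**Figure D1:**
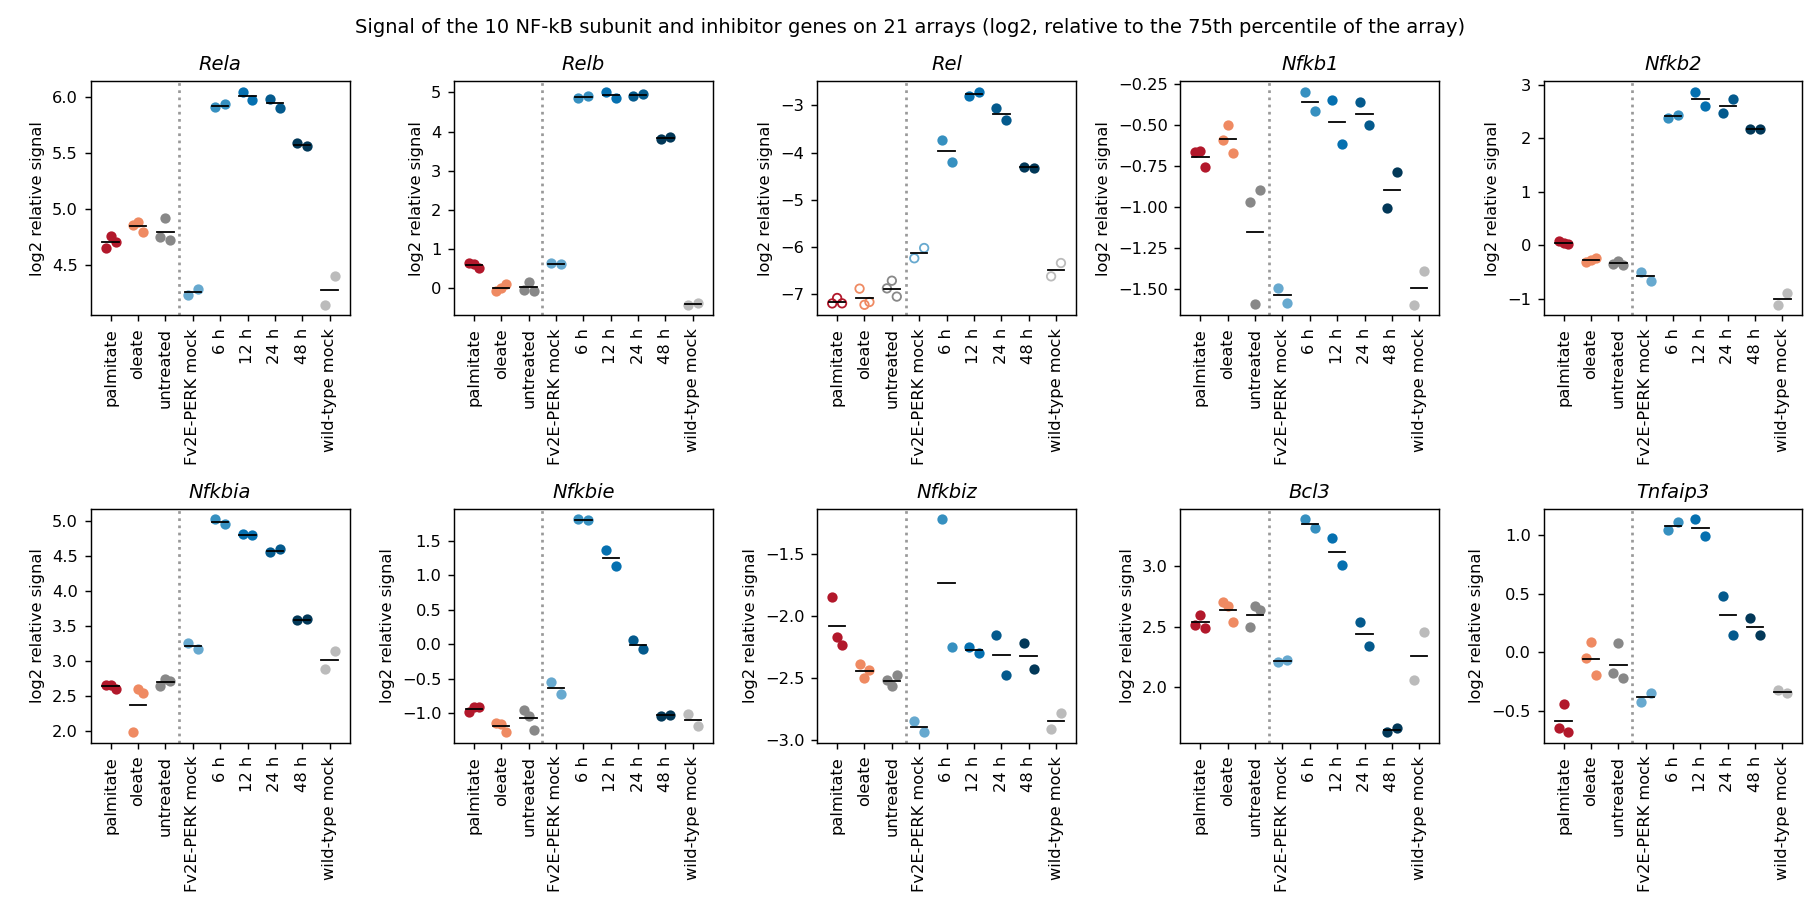
Signal of each gene on each array, as log2 relative to the array's 75th percentile (y axis), by group (x axis, with the fatty acid experiment left of the dotted line). Points are arrays, open where the probe was not well above background, and bars are group means. In the Rel panel the points are open on every array without AP20187.

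The AP20187 time course asked which genes change with hours of AP20187 in Fv2E-PERK cells. Rel is described apart, since it was well above background on no mock array and was tested only through AP20187 groups, so that it had to differ at some time. Of the other 9 genes, all 9 rose at 6 h against Fv2E-PERK mock cells, in a comparison in which 24.9% of entries rose and 40.0% fell. At 12 h 8 of the 9 rose (27.1% of entries rose, 40.5% fell), 7 at 24 h (27.0% and 40.4%) and at 48 h 6 rose and 2 fell (27.2% and 34.6%). The median change of the 9 genes was 1.67 at 6 h, 1.59 at 12 h, 1.11 at 24 h and 0.61 at 48 h, beside medians over all entries of -0.23, -0.19, -0.20 and -0.07. The 4 comparisons share the same 2 mock arrays. The shares and medians over all entries depend on the scaling. With spike-in scaling 89.4% of calls at 6 h were higher, against 38.4% here, and the median of all entries moved by 0.66. Beta cell markers moved with the treatment: the log2 of their summed signal was 11.53 to 11.65 in mock cells, 10.85 to 10.96 after 6 h, 10.86 to 10.98 after 12 h, 10.81 to 11.01 after 24 h and 11.14 to 11.25 after 48 h. Of these 10 markers, 10 fell at 6 h, 9 at 12 h, 10 at 24 h and 7 at 48 h, and 0 rose. The immune markers summed to 4.30 to 4.56 in mock cells, 3.73 to 3.95 after 6 h, 4.55 to 4.58 after 12 h, 3.66 to 4.11 after 24 h and 4.80 to 4.96 after 48 h. The mesenchymal and endothelial markers summed to 3.63 to 3.83 in mock cells, 2.72 to 2.82 at 6 h, 2.72 to 2.75 at 12 h, 2.65 to 3.05 at 24 h and 3.78 to 3.80 at 48 h. Heart muscle markers, of which 1 of 9 was well above background in mock cells and 5 at 48 h, summed to -2.10 to -1.87 in mock cells, -2.47 to -2.30 at 6 h, -1.76 to -1.50 at 12 h, -2.05 to -1.74 at 24 h and -0.88 to -0.84 at 48 h. Skeletal muscle markers summed to 0.10 to 0.15 in mock cells and to between -0.85 and -0.21 on the AP20187 arrays. The part of these lists in the results was not tested. The 48 h arrays lie on another slide than the Fv2E-PERK mock arrays, so at 48 h slide and treatment cannot be told apart, while 6, 12 and 24 h share the mock's slide.

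Among the subunits, Relb, the activating partner of p52 in the alternative NF-kB pathway, changed most. Its signal was 0.64 and 0.61 in mock cells, 4.87 and 4.90 after 6 h, 5.02 and 4.87 after 12 h, 4.90 and 4.96 after 24 h, and 3.80 and 3.85 after 48 h. Every AP20187 array lay over 3 units above both mock arrays, and the first 3 times overlapped. The change was 4.26 ± 0.07 at 6 h (19.2-fold, adjusted p = 7.87e-08), 4.32 ± 0.07 at 12 h, 4.30 ± 0.07 at 24 h and 3.20 ± 0.07 at 48 h (9.20-fold, adjusted p = 1.31e-07). The second Relb probe gave differences of means of 4.34, 4.33, 4.31 and 3.44 at the same times.

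Nfkb2, which encodes the p52 precursor, showed the next largest change of the 4 subunits measured in mock cells. It had signals of -0.49 and -0.67 in mock cells, 2.38 and 2.44 after 6 h, 2.87 and 2.61 after 12 h, 2.48 and 2.74 after 24 h, and 2.18 and 2.17 after 48 h. All AP20187 arrays were above all mock arrays, by 2.99 ± 0.13 at 6 h, 3.32 ± 0.13 at 12 h (9.98-fold, adjusted p = 7.27e-07), 3.19 ± 0.13 at 24 h and 2.75 ± 0.13 at 48 h.

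Rela encodes the main activating subunit of the classical pathway. Its signal was 4.23 and 4.29 in mock cells, 5.91 and 5.94 after 6 h, 6.05 and 5.98 after 12 h, 5.99 and 5.91 after 24 h, and 5.59 and 5.56 after 48 h. The groups did not overlap with mock, and the change ran from 1.76 ± 0.09 at 12 h (3.38-fold, adjusted p = 2.16e-06) to 1.32 ± 0.09 at 48 h.

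Nfkb1, the gene of the p50 precursor, had the smallest change of the 4 subunits measured in mock cells. It had -1.49 and -1.58 in mock cells, -0.30 and -0.42 after 6 h, -0.35 and -0.62 after 12 h, -0.36 and -0.50 after 24 h, and -1.01 and -0.79 after 48 h. The change was 1.18 ± 0.13 at 6 h (2.26-fold, adjusted p = 8.87e-05) and 0.64 ± 0.13 at 48 h (adjusted p = 0.00256). Its second probe disagreed at the late times: it differed from mock by 0.84 at 6 h but by 0.20 at 24 h and 0.28 at 48 h.

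Rel, which encodes c-Rel, was well above background on the 8 AP20187 arrays and on none of the other 13. Its signal was -3.73 and -4.20 after 6 h, -2.81 and -2.71 after 12 h, -3.06 and -3.31 after 24 h, and -4.30 and -4.33 after 48 h, beside measured values of -6.24 and -6.03 in mock cells that only bound its level there. Against that bound Rel was at least 2.31-fold higher at 12 h (adjusted p = 1.78e-06) and at least 1.72-fold higher at 24 h (adjusted p = 3.65e-06). At 6 and 48 h the bound gave no fold above 1, and with normexp background correction Rel lost its call at 6 h (adjusted p = 0.116) and changed by -0.10 at 48 h (adjusted p = 0.385).

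**Figure D2:**
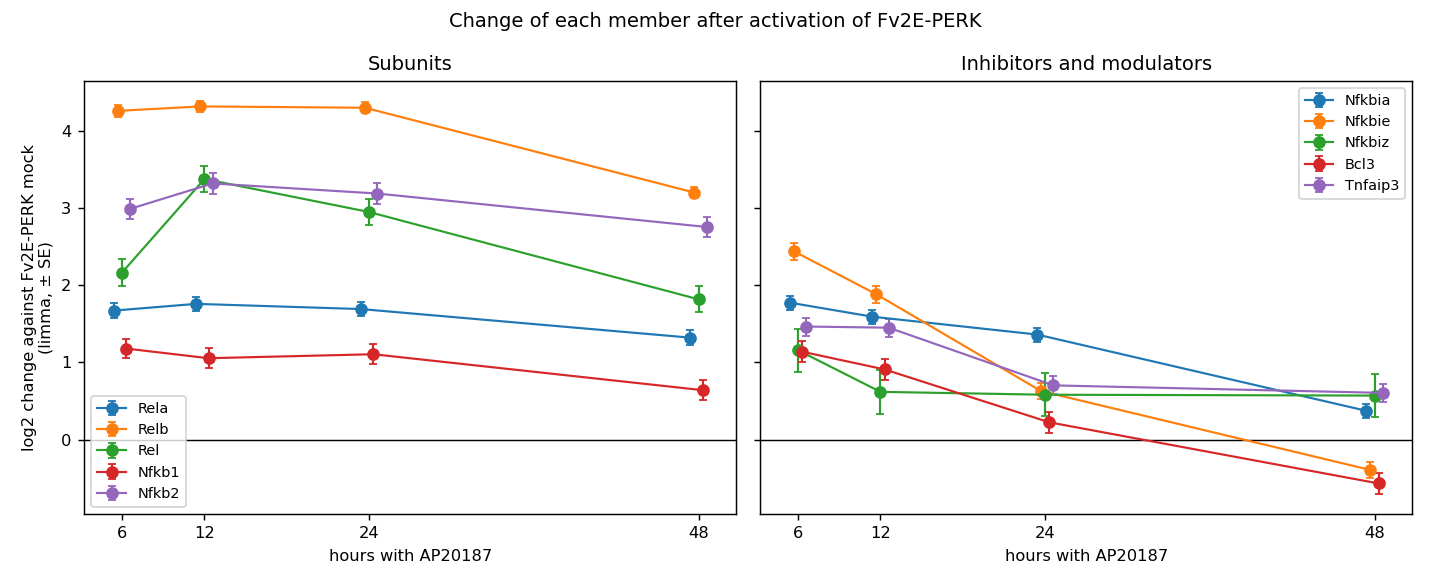
Log2 change of each gene against Fv2E-PERK mock (y axis, ± standard error) by hours with AP20187 (x axis, points set slightly apart), for the subunits on the left and the inhibitors and modulators on the right. Rel is drawn at its fitted value, although its mock level is only bounded. Relb stays above 3 at every time, and Nfkbie and Bcl3 end below 0 at 48 h.

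All 5 inhibitors and modulators rose at 6 h. Nfkbia, whose product IkBalpha is the classical feedback inhibitor, had 3.25 and 3.18 in mock cells, 5.03 and 4.96 after 6 h, 4.82 and 4.80 after 12 h, 4.56 and 4.60 after 24 h, and 3.58 and 3.60 after 48 h. Neighbouring times did not overlap, and every AP20187 array stayed above mock, by 1.77 ± 0.09 at 6 h (3.42-fold, adjusted p = 2.93e-06) and 0.37 ± 0.09 at 48 h (adjusted p = 0.0073).

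Nfkbie, which encodes IkBepsilon, differed most between the AP20187 times. It had -0.55 and -0.72 in mock cells, 1.81 and 1.80 after 6 h, 1.37 and 1.13 after 12 h, 0.06 and -0.07 after 24 h, and -1.04 and -1.02 after 48 h. It changed by 2.44 ± 0.11 at 6 h (5.42-fold, adjusted p = 1.83e-06), by 0.63 ± 0.11 at 24 h and by -0.39 ± 0.11 at 48 h (adjusted p = 0.013). The call at 48 h was lost without mock replicate 1 (a change of -0.31) or without 48 h replicate 1 (-0.38), and spike-in scaling turned the change to 0.19.

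Bcl3 encodes an IkB-like protein that enters the nucleus and works with p50 or p52. It had 2.21 and 2.22 in mock cells, 3.39 and 3.32 after 6 h, 3.23 and 3.01 after 12 h, 2.54 and 2.34 after 24 h, and 1.62 and 1.66 after 48 h. It changed by 1.14 ± 0.14 at 6 h (adjusted p = 1.67e-04), did not pass at 24 h (0.22 ± 0.14, adjusted p = 0.182) and changed by -0.57 ± 0.14 at 48 h (adjusted p = 0.00713), or by 0.02 with spike-in scaling.

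Tnfaip3, the gene of the deubiquitinase A20 that shuts down signalling above IKK, had -0.42 and -0.35 in mock cells, 1.04 and 1.11 after 6 h, 1.13 and 1.00 after 12 h, 0.48 and 0.15 after 24 h, and 0.29 and 0.15 after 48 h. It was above mock on every AP20187 array, by 1.46 ± 0.12 at 6 h (2.76-fold, adjusted p = 1.87e-05) and 0.61 ± 0.12 at 48 h.

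Nfkbiz encodes the nuclear protein IkBzeta, a co-regulator of a subset of NF-kB targets. It had -2.85 and -2.94 in mock cells, -1.22 and -2.25 after 6 h, and between -2.47 and -2.15 on the 6 later arrays. The 2 arrays at 6 h differed by more than any other pair of the gene, and its change of 1.16 ± 0.28 (adjusted p = 0.0068) was 0.64 without 6 h replicate 1. At 12, 24 and 48 h the changes of 0.62, 0.58 and 0.57 (each ± 0.28) did not pass.

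The comparison of 48 h with 6 h tested the difference between late and early times directly, across slides. None of the 10 genes was higher and 7 were lower, in a comparison where 33.2% of entries were higher and 27.6% lower. Nfkbie was lower by 2.83 ± 0.11 log2 units (adjusted p = 1.9e-06), Bcl3 by 1.71 ± 0.14, Nfkbia by 1.40 ± 0.09, Relb by 1.06 ± 0.07 and Tnfaip3 by 0.86 ± 0.12. Nfkb1 was lower by 0.54 ± 0.13, a call lost without 48 h replicate 1 (adjusted p = 0.0509). Rela was lower by 0.35 ± 0.09, a call lost without 6 h replicate 2 or 48 h replicate 2 (adjusted p = 0.0547 and 0.0589). Both calls were also lost with spike-in scaling. Nfkb2 (-0.24, 95% interval -0.54 to 0.06) and Rel (-0.35, -0.74 to 0.05) did not pass.

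The wild-type mock arrays share the slide of the 48 h arrays, so a comparison of these groups, added after the data were seen, is free of the slide but also differs in the transgene. Apart from Rel, 6 genes were higher and 1 lower at 48 h (27.5% of entries were higher and 36.3% lower). The bound for Rel was at least 1.04-fold higher, and normexp ended that call. Relb was higher by 4.23 ± 0.07, Nfkb2 by 3.18 ± 0.13 and Rela by 1.30 ± 0.09. Bcl3 was lower by 0.61 ± 0.14 (adjusted p = 0.00471), or higher by 0.10 with spike-in scaling. Nfkbie, at -1.04 and -1.02 after 48 h and -1.01 and -1.18 in wild-type mock cells, did not differ beyond its spread (0.06 ± 0.11).

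Without AP20187, Fv2E-PERK cells already differed from wild-type cells in Relb. Its signal was 0.64 and 0.61 in Fv2E-PERK mock cells, against -0.42 and -0.38 in wild-type mock cells. The groups lay 1.03 ± 0.07 apart (2.04-fold, adjusted p = 5.57e-05), and the second probe differed by 0.85. Nfkbie, at -0.55 and -0.72 in Fv2E-PERK mock cells against -1.01 and -1.18 in wild-type mock cells, was higher by 0.46 ± 0.11 (adjusted p = 0.0222). That call was lost without Fv2E-PERK mock replicate 1 or without wild-type mock replicate 2, and with spike-in scaling. Nfkb2 was -0.49 and -0.67 in Fv2E-PERK mock cells against -1.11 and -0.89 in wild-type mock cells, and missed the threshold (0.42 ± 0.13, adjusted p = 0.0559). The other 7 did not pass, with 9.23% of entries higher and 10.8% lower. These groups lie on different slides, and slide and transgene cannot be told apart.

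In the fatty acid experiment 9 of the 10 genes could be tested, since Rel was well above background on none of the 9 arrays, with signals of -7.23 to -6.72. Palmitate was set against no treatment to show what a saturated fatty acid changes. Relb, Nfkb2 and Nfkbiz were higher with palmitate and Tnfaip3 was lower, while 7.41% of entries rose and 12.6% fell. The 3 genes that rose did so by 1.30-fold to 1.48-fold. The median change of the 9 genes was 0.14, beside -0.05 over all entries. Of 10 beta cell markers, 5 fell with palmitate and 0 rose. The part of these markers in the palmitate results was not tested.

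Relb had 0.65, 0.61 and 0.51 with palmitate, against -0.04, 0.17 and -0.07 in untreated cells. The groups did not overlap and differed by 0.57 ± 0.08 (1.48-fold, adjusted p = 0.0031), and the second probe differed by 0.53. Nfkb2 had 0.07, 0.05 and 0.02 with palmitate, against -0.35, -0.29 and -0.37 in untreated cells, a difference of 0.38 ± 0.05 (1.30-fold, adjusted p = 0.00152) with no overlap.

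Nfkbiz had -1.84, -2.17 and -2.23 with palmitate, against -2.51, -2.56 and -2.48 in untreated cells. It was higher by 0.44 ± 0.10 (adjusted p = 0.0186). Leaving out untreated replicate 2 ended that call (adjusted p = 0.0544), as did normexp. Tnfaip3 had -0.65, -0.44 and -0.69 with palmitate, against -0.18, 0.08 and -0.22 in untreated cells. It was lower by 0.48 ± 0.11 (adjusted p = 0.02), and the call was lost without palmitate replicate 1 (adjusted p = 0.0668) or without palmitate replicate 3 (0.0575), and with spike-in scaling (-0.30, adjusted p = 0.349). With the authors' matrix values none of the 4 genes passed.

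The other 5 tested genes did not pass. Nfkb1 had -0.66, -0.66 and -0.75 with palmitate, against -0.97, -1.59 and -0.89 in untreated cells; its change of 0.46 ± 0.17 (adjusted p = 0.0934) was 0.14 on its second probe and 0.24 without untreated replicate 2. Rela changed by -0.09 ± 0.06, Nfkbia by -0.06 ± 0.15, Nfkbie by 0.14 ± 0.08 and Bcl3 by -0.06 ± 0.07, and each of these 4 groups overlapped with untreated.

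**Figure D3:**
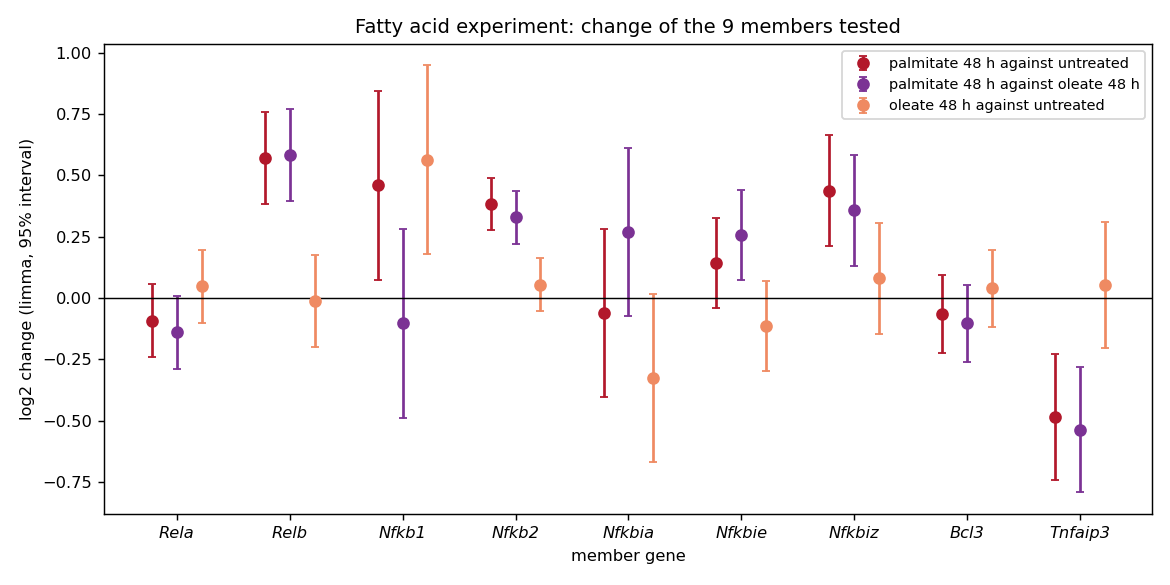
Log2 change (y axis, with 95% intervals from limma) of the 9 genes tested in the fatty acid experiment (x axis), for palmitate against untreated, palmitate against oleate and oleate against untreated. Both palmitate intervals of Relb, Nfkb2 and Nfkbiz lie above 0 and those of Tnfaip3 below 0, while the oleate interval excludes 0 only for Nfkb1.

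Oleate gave 0 calls among the 9 genes in limma, with 1 at an unadjusted p under 0.05 (Nfkb1, 0.56 ± 0.17, adjusted p = 0.173; 0.34 without untreated replicate 2), while 0.334% of entries rose and 0.503% fell. Against oleate, which shares the palmitate arrays with the comparison above, palmitate again gave 3 higher genes and 1 lower (7.48% of entries higher, 6.27% lower). Relb was higher by 0.58 ± 0.08, Nfkb2 by 0.33 ± 0.05 and Nfkbiz by 0.36 ± 0.10 (adjusted p = 0.049), and Tnfaip3 was lower by 0.54 ± 0.11. Nfkbiz lost its call without any one of the 3 oleate arrays or without palmitate replicate 1 or 2 (adjusted p 0.0545 to 0.144). Tnfaip3 lost its call without oleate replicate 1 or 2 or palmitate replicate 1 or 3 (0.0567 to 0.0668).

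Muscle transcripts differed between the same arrays. Of 9 heart muscle markers, 1 to 5 were well above background on the palmitate arrays, 8 to 9 on the oleate arrays and 8 on the untreated arrays, and the log2 of their summed signal was -2.13 to 0.25, 4.19 to 4.40 and 4.08 to 4.46. Skeletal muscle markers summed to 4.06 and 4.11 on palmitate arrays 1 and 2 but to 0.48 on array 3, beside 0.92 to 0.97 with oleate and 0.91 to 1.17 in untreated cells. Palmitate array 3 is also the only array of the experiment on its slide. Their part in the palmitate results was not tested. With palmitate arrays 1 and 2 left out, the change against untreated was 0.36 for Nfkb2 (adjusted p = 0.0394) and did not pass for Relb (0.49, adjusted p = 0.0665), Nfkbiz (0.29) or Tnfaip3 (-0.58), with the spread of the lone palmitate array assumed to be that of the other groups.

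**Figure D4:**
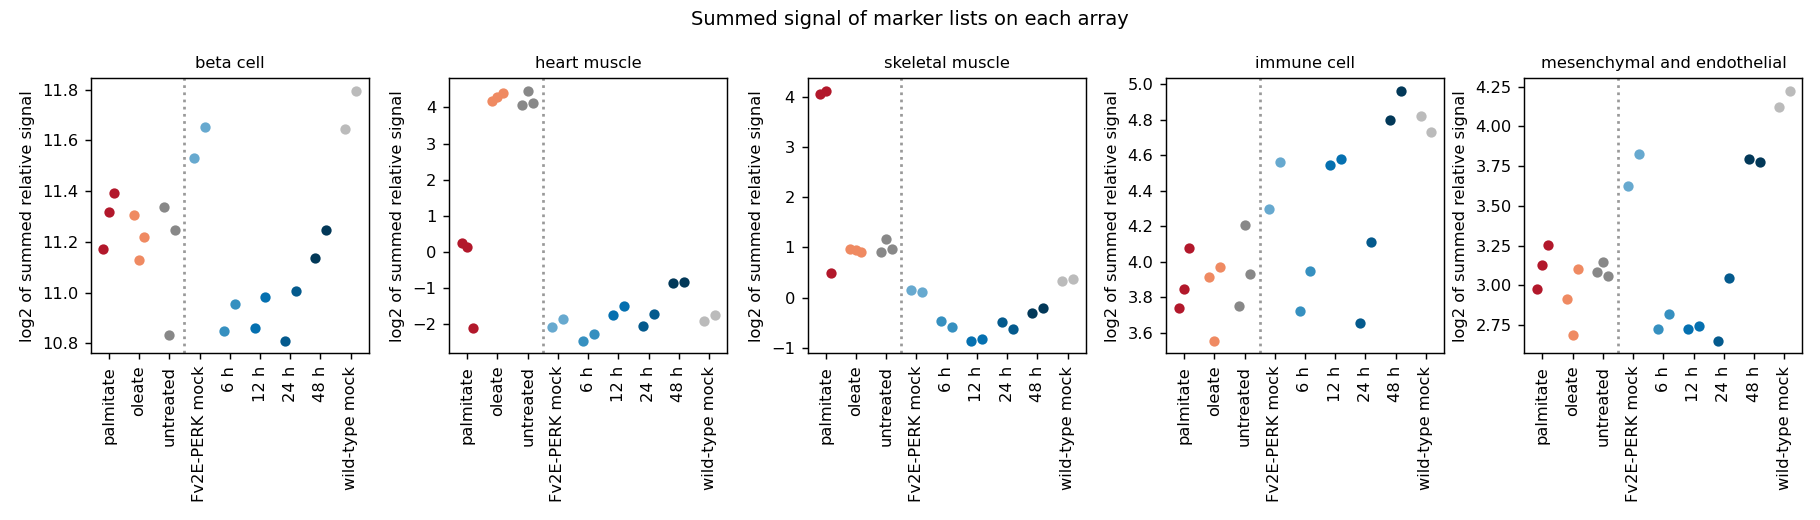
Log2 of the summed relative signal of 5 marker lists (y axes, one panel per list) on each array (points) by group (x axis). Heart muscle markers are above 4 on all untreated and oleate arrays and at or below 0.25 on the palmitate arrays, and skeletal muscle markers are above 4 on 2 palmitate arrays only.

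The order of the groups differed between genes. Rela, Relb, Rel and Nfkb2 had their highest mean at 12 h, which overlapped with 24 h except for Rel, and all 4 AP20187 times lay above the other 5 groups. Nfkbia also had all 4 times on top, but was highest at 6 h. For Relb the 12, 24 and 6 h groups overlapped, and so did Fv2E-PERK mock with palmitate and untreated with oleate. Nfkbie, Bcl3 and Tnfaip3 had their highest mean at 6 h, which overlapped with 12 h for Tnfaip3, and Bcl3 was lowest of all groups at 48 h and Tnfaip3 with palmitate. Nfkb1 and Nfkbiz also had their highest mean at 6 h, which overlapped with the next group. For Nfkb1, oleate and palmitate had higher means than 48 h of AP20187. For Nfkbiz, palmitate came next after 6 h, and its mean lay above those at 12, 24 and 48 h. Levels across the 2 experiments were scaled array by array and were not tested against each other.

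Genes around the members in the pathway were counted from 6 lists. These counts stand beside 24.9% of all entries higher and 40.0% lower at 6 h, 27.2% and 34.6% at 48 h, and 7.41% and 12.6% with palmitate. Of 10 kinases, 7 were higher and 0 lower both at 6 h and at 48 h of AP20187, and 1 was higher with palmitate. Map3k14, the NIK kinase that triggers processing of the p52 precursor, averaged 2.74 ± 0.01 at 6 h and 1.01 ± 0.09 at 48 h, against -1.01 ± 0.10 in mock cells (SD, n = 2 each). It rose by 3.75 ± 0.12 at 6 h and 2.02 ± 0.12 at 48 h (adjusted p = 4.8e-06) and was not called with palmitate (-0.08 ± 0.09). Ikbkb, an IKK catalytic subunit, rose least at 48 h (0.29 ± 0.10), a call lost with normexp, and Ikbkg, the IKK scaffold NEMO, was the gene of this list that rose with palmitate (0.49 ± 0.05, or 0.26 with the matrix values, adjusted p = 0.661).

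Of 18 adaptors, 7 were higher and 4 lower at 6 h, 7 and 4 at 48 h (12 and 0 with spike-in scaling), and 1 and 2 with palmitate. Of all entries 24.9% were higher and 40.0% lower at 6 h, and 27.2% and 34.6% at 48 h. The palmitate counts are near the share over all entries (7.41% and 12.6%). Traf2, a ring-finger adaptor of TNF receptors, fell with palmitate by 0.34 (SE 0.05), while Birc3, a ubiquitin ligase in the same complexes, rose by 0.57 ± 0.16, a call lost with quantile, normexp and spike-in processing and with the matrix values (adjusted p 0.0501 to 0.62). Birc3, well above background on 1 of 2 mock arrays, rose by 1.53 ± 0.10 at 48 h of AP20187, or by 0.45 with normexp. Irak4, a kinase below Toll-like receptors, was well above background on no mock array and at least 1.17-fold higher at 48 h. Its arrays at 48 h had an SD of 1.37, and its call was lost with normexp or quantile processing (limma, adjusted p = 0.925 and 0.0571). The lowest called adaptor at 48 h was Tradd, the TNF receptor adaptor, at -0.90 ± 0.07. With spike-in scaling Tradd at 48 h and Traf2 with palmitate were not called, nor were Tnfrsf11a, Cyld and Gadd45b with palmitate or Nkap and Irf1 at 48 h, which are described next. With the matrix values Traf2, Tnfrsf11a, Cyld and Gadd45b were not called with palmitate either (adjusted p 0.337 to 0.541).

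Of 13 receptors, 11 were tested in the PERK experiment. At 6 h 5 were higher and 2 lower (24.9% and 40.0% of all entries). At 48 h 5 were higher and 4 lower (27.2% and 34.6%). With palmitate 9 were tested, of which 2 were higher and 1 lower (7.41% and 12.6% of all entries). Cd40, a TNF-family receptor that acts through both pathways, averaged -1.18 ± 0.03 with palmitate against -2.71 ± 0.06 in untreated cells (SD, n = 3 each) and rose by 1.53 ± 0.05 (adjusted p = 2.66e-06), or by 0.77 with normexp. It rose by 2.92 ± 0.18 at 48 h of AP20187. Tnfrsf11a, the receptor RANK, was the lowest called with palmitate (-0.26 ± 0.06), and Il1r1, the interleukin 1 receptor, the lowest at 48 h (-1.44 ± 0.10).

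Only 4 of 10 ligands were tested in the PERK experiment and 2 with fatty acids. At 6 h 1 was higher and 1 lower, at 48 h 2 and 2, and with palmitate 0 of 2 in limma (0 in every scaling tried). Ltb, lymphotoxin beta, was well above background on no mock array, so it was tested only through AP20187 groups and had to differ. It is counted among the higher ligands at 6 h and at 48 h. It was at least 2.68-fold higher at 48 h, while normexp gave a log2 change of 0.91, and Il1b, interleukin 1 beta, was lower by 1.41 ± 0.11. Of 12 other inhibitors and regulators, 11 were tested: 8 were higher and 1 lower at 6 h, 5 and 2 at 48 h, and 0 and 1 with palmitate. Beside these and the ligand counts, 24.9% of all entries were higher and 40.0% lower at 6 h. The shares were 27.2% and 34.6% at 48 h, and 7.41% and 12.6% with palmitate. Nfkbid, another nuclear IkB protein, rose by 1.82 ± 0.10 at 48 h, Nkap was lower by 0.86 ± 0.09, and Cyld, a deubiquitinase, was lower with palmitate by 0.44 ± 0.09.

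Of 26 target genes, 25 were on the array. In the PERK experiment 17 were tested, of which 10 were higher and 3 lower both at 6 h and at 48 h. Of all entries 24.9% were higher and 40.0% lower at 6 h, and 27.2% and 34.6% at 48 h. With palmitate 14 targets were tested, of which 7 were higher and 3 lower (7.41% and 12.6% of all entries). The median change was 0.77 at 6 h, 0.47 at 48 h and 0.30 with palmitate, beside -0.23, -0.07 and -0.05 over all entries; with normexp these medians were 0.07, 0.15 and 0.11. Lcn2, an iron-binding defence protein, averaged -2.72 ± 0.12 at 6 h and 4.33 ± 0.10 at 48 h, against -2.51 ± 0.30 in mock cells (SD, n = 2 each). It did not pass at 6 h and rose by 6.84 ± 0.17 at 48 h (adjusted p = 1.53e-07), so its course differs from those of the subunits. Irf1, an interferon-linked transcription factor, rose by 1.06 at 6 h and was the lowest called target at 48 h (-0.68 ± 0.07, or -0.09 with spike-in scaling). With palmitate Lcn2 rose by 2.88 ± 0.30, with 0.22 ± 0.11 in palmitate cells against -2.66 ± 0.04 in untreated cells (SD, n = 3 each). The target counts and medians above include Ptgs2, which makes prostaglandins. In the PERK experiment it was well above background on no Fv2E-PERK mock array and at least 10.2-fold higher at 6 h. In the fatty acid experiment it was well above background on the palmitate arrays only. There it was tested through them alone and had to differ. Its bound was at least 3.20-fold, while normexp gave a log2 change of 0.62. Gadd45b, a stress-response gene, was lower with palmitate by 0.39 ± 0.09, a call lost with normexp (adjusted p = 0.0647). With AP20187 Gadd45b rose by 2.61 at 6 h and by 2.69 at 48 h.

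**Figure D5:**
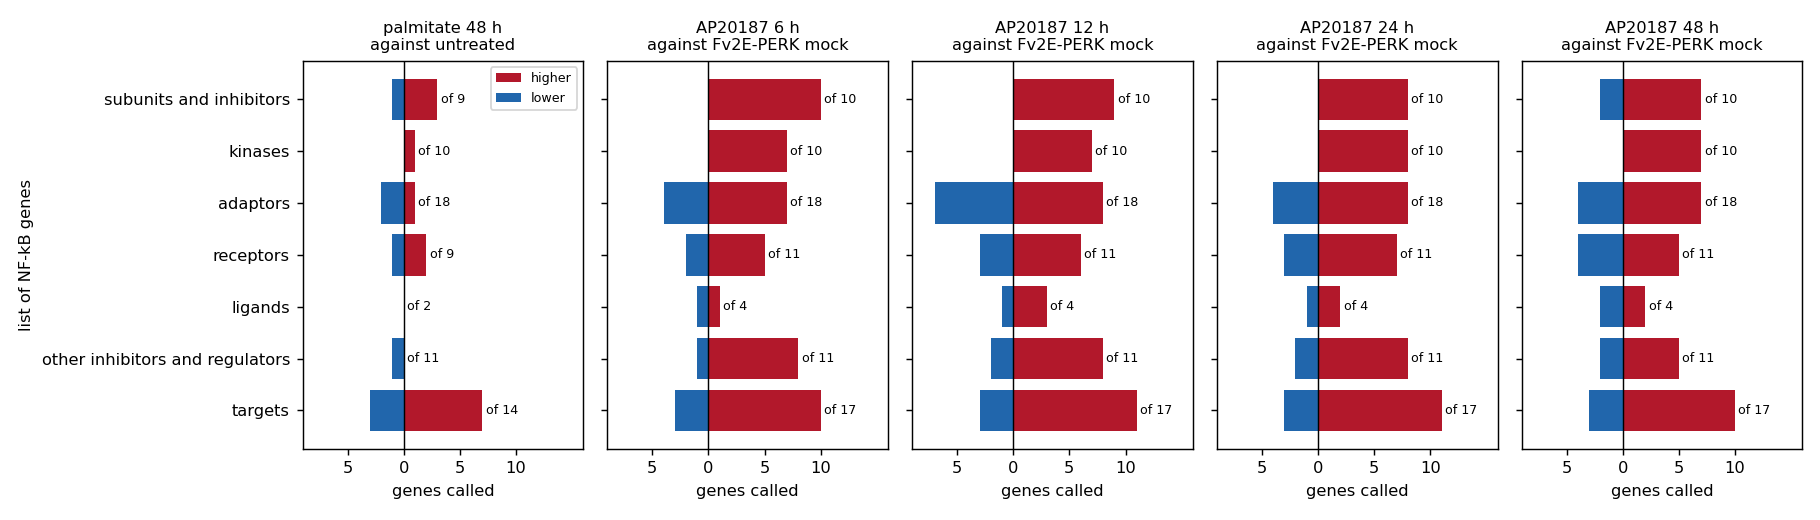
Number of genes called higher (red, right) and lower (blue, left) in each list of NF-kB genes (rows), with the number tested beside the bars, for palmitate against untreated and for the 4 AP20187 times against Fv2E-PERK mock. Rel counts among the subunits and inhibitors. The kinases have 7 to 8 of 10 higher and 0 lower at every AP20187 time. Of all entries 24.9 to 27.2% were higher and 34.6 to 40.5% lower at these times.

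The genes whose signals ran most like the members' over the 12 PERK arrays were named by Pearson's r, as a description: the arrays share the treatment groups, and treated and mock arrays lie apart, so r is high for any gene that follows the treatment. For 9 members, called at 2 or more times, the 3 nearest genes had r of 0.979 to 0.998. Relb ran closest to Dis3, Ier2 and Chaf1a, Nfkb2 to Aunip, Olfr1382 and Gadd45b, and Rela to Dusp16, Csrnp1 and Trit1. Rel was nearest to Vcpkmt, Fubp1 and Tra2a, and Nfkb1 to Ddx19a, Prpf38b and Trp53bp1. Among the inhibitors, Nfkbia ran closest to Traf2 (0.998), Kat5 and Zfp689, Nfkbie to Kctd1, Snx11 and Hnrnph3, Bcl3 to Fcsk, Arnt and Irf1, and Tnfaip3 to Foxj3, Dgcr8 and Zcchc4.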

How the data were processed

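RNA from 21 samples was measured on one-colour Agilent arrays. Per the file headers, the authors' spot intensity values were extracted with Agilent Feature Extraction 10.7.1.1. The deposited series matrix holds log2 values. Compared with the scanner files, each equals the log2 processed signal less an array constant and a baseline per probe and experiment. In the fatty acid experiment that constant differs from the array's 75th percentile by -0.49 to 0.19, and column medians run from -0.27 to 0.35; in the PERK experiment they run from -0.32 to 0.33. What the baseline is stays unknown. In the fatty acid experiment 10480 to 17661 probes per array have no value in the matrix, and in the PERK experiment 0.

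Control spots (3671 of 62976) and 108 to 379 outlier spots per array were left out; 0 spots were saturated. Spots of a probe were averaged, and log2 of the array's 75th percentile was subtracted from their log2 signal. Accessions were matched to RefSeq (GRCm38.p6): 26582 of 55681 probes had a symbol. The brightest probe stood for a gene, giving 37208 entries. An entry was tested where some group of the experiment had it well above background on each of its arrays (21279 and 23386 entries), with limma 3.58.1 (R 4.3.3), 1 coefficient per group, fitted per experiment. Where no array of a group was well above background, the fold is a lower bound, with each dim array set to the dimmest signal that was well above background on it, or to the probe's signal if that was brighter. The test was run on simulated data. The members, the gene lists and the comparisons were chosen with earlier results of these data known. All members are described; from each list the called genes with the largest and smallest change with palmitate and at 48 h are named, with values at 6 h for some. Groups come from sample titles; for 1 wild-type mock array title and source name disagree on the replicate number, which here follows the title. Replicate numbers were not used to pair the samples in the main fit. Alternatives were quantile, spike-in and normexp (offset 50, on the median intensity) processing, the matrix values, no filter, probe means, replicate and slide blocks, and leaving out arrays.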

Additional observations from a re-analysis of the deposited data

Results flagged for a closer look

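Between 48 h and 6 h of AP20187 the effect on 7 members differed by the test of the difference itself (limma, 2 arrays per time, lower at 48 h on both arrays against both arrays at 6 h). The log2 differences, 48 h minus 6 h, were -2.83 for Nfkbie, -1.71 for Bcl3, -1.40 for Nfkbia, -1.06 for Relb, -0.86 for Tnfaip3, -0.54 for Nfkb1 and -0.35 for Rela. Of all entries, 33.2% were higher and 27.6% lower at 48 h than at 6 h. Nfkb1 and Rela lost their calls with spike-in scaling, and also when certain single arrays were left out, as given above. The 2 times lie on different slides, and slide and time cannot be told apart.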

How the results depend on the processing

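Of 1166 recomputed member changes, 1059 kept their direction and their side of the threshold. With palmitate against untreated, the count of called members was 4, and 0 with the matrix values, 2 when dim probes were not filtered and 1 with palmitate arrays 1 and 2 left out; it ran from 3 to 4 when 1 array was left out. Against oleate it was 4, and 2 with spike-in scaling, 0 with the matrix values, 2 with no filter and 0 without palmitate arrays 1 and 2, and ran from 2 to 3 when 1 array was left out. The matrix constants differ between arrays of that experiment, and its matrix lacks values for many probes. Whether either accounts for the lost calls was not tested. Between Fv2E-PERK and wild-type mock cells the count was 2, and 1 with spike-in scaling or no filter, and 1 to 2 when 1 array was left out. At 6, 12, 24 and 48 h of AP20187 it stayed at 10, 9, 8 and 9, Rel included, with the replicate block. That block left 4 calls with palmitate against untreated and 3 against oleate, where Nfkbiz was lost (adjusted p = 0.0562). Deviations of same-numbered arrays correlated at -0.03 to 0.04 in the fatty acid experiment. In the PERK experiment the range was -0.01 to 0.13 and mostly positive, and whether the numbers pair those arrays was not tested further. A slide block, possible only for the fatty acids, left 3 calls with palmitate against untreated and lost Tnfaip3.

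Normexp turned Rel at 48 h to -0.10 against Fv2E-PERK mock and to -0.084 against wild-type mock. Spike-in scaling turned Nfkbie at 48 h to 0.19 and Bcl3 to 0.016, and Bcl3 against wild-type mock to 0.10. It moved the median of all entries by 0.59 to 0.93 at the AP20187 times, by 0.71 at 48 h against wild-type mock, by 0.18 and 0.19 with palmitate and by 0.12 between mock groups. With it 88.0 to 93.5% of calls at the AP20187 times were higher, against 38.4 to 44.0% with the percentile, and at 48 h 12 adaptors were higher and 0 lower. With palmitate the share was 87.6% against 37.0%, and 93.0% against 54.4% over oleate; between mock groups 75.9% against 46.2%, at 48 h against wild-type mock 89.4% against 43.1%, and with oleate 3 of 4 calls against 39.9% of 178. Quantile normalization moved the medians at 6 and 12 h by 0.12 and 0.11, with 49.0% of calls higher at 6 h and 50.6% with oleate. Normexp gave 32.6% at 48 h against either mock and 53.2% with oleate, where 94 entries were called. The matrix values moved palmitate by -0.23 against untreated and -0.29 against oleate, with 549 entries called in place of 4267 and, over oleate, 409 in place of 2927, of which 35.9% were higher; with oleate 70.1% of 184 calls were higher. Spike-in scaling called 1292 entries with palmitate, 1378 over oleate, 1413 in place of 4678 between mock groups and 8434 in place of 14220 between 48 and 6 h. With no filter 2266, 1398 and, with oleate, 26 were called. Oleate calls numbered 54 with the replicate block and 22 to 93 when 1 array was left out. Without palmitate replicate 1, 2673 were called against untreated and 1795 against oleate; without 1 oleate array, 1398 to 1867 over oleate; without 1 array, 2642 to 3038 between mock groups; and without palmitate arrays 1 and 2, 1719 and 1406. A slide block in the PERK experiment was not run, since groups lie within slides. The number of arrays limits the precision of every value.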
